A study of Mus musculus with 6 samples.

Results

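The NF-κB family is described here by 10 genes: the Rel subunits Rela, Rel, Relb, Nfkb1 and Nfkb2, the IκB inhibitors Nfkbia, Nfkbib and Nfkbie, the ubiquitin editor Tnfaip3 and the nuclear IκB protein Bcl3. They were taken by name from a table of 16440 genes, and all 10 were present and passed the filter on low values. The comparison set 3 RNA-seq libraries of normal myeloid progenitors (MPs) against 3 of acute promyelocytic leukemia (APL) progenitors, all from FVB/NJ mice. The MPs were Lin-Sca-1-c-Kit+ bone marrow (BM) cells, a mixture of progenitors with granulocytic, monocytic, erythroid and megakaryocytic potential. The APL cells came from leukemia of hMRP8-PML/RARα transgenic mice, in which the human MRP8 promoter drives the fusion gene in myeloid cells. They had been labeled with GFP by the retroviral vector MigR1, expanded by transplantation into syngeneic recipients and sorted as GFP+c-Kit+ cells. The recipients of the labeled cells were sublethally irradiated. The design text calls the libraries biological replicates but does not say whether each came from a separate mouse, so the p-values measure the spread between these libraries only.

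NF-κB transcription factors are dimers of Rel subunits that wait in the cytoplasm in complex with IκB proteins. In the canonical pathway, receptors of the TNF, IL-1 and Toll-like families activate the IκB kinase (IKK) complex, which marks IκBα, encoded by Nfkbia, for degradation and frees dimers of RelA and p50. In the non-canonical pathway, processing of the p100 protein encoded by Nfkb2 frees dimers of p52 and RelB. Nfkbia and Tnfaip3 are themselves NF-κB targets and close negative feedback loops. Much of this control acts on proteins, which were not measured in these libraries.

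Total fragments before scaling lay between 22976905 and 26932327 in the MP libraries and between 20608715 and 28382785 in the APL libraries. MP library 3 stood apart from the other MP libraries. A median-based variance between libraries was 10.7 times that of counting alone in both of its pairs, against 2.85 times for libraries 1 and 2. In the APL group it was 5.40 times for libraries 1 and 2, 3.53 for 1 and 3, and 2.95 for 2 and 3. Values given per library below stand in the order of libraries 1 to 3. Kit, the gene of the sorted receptor, was present in both groups, with 70.6 to 74.5 FPKM (fragments normalized for transcript length and library size) in MPs and 39.6 to 40.7 in APL progenitors. The summed FPKM of 8 early myeloid and promyelocyte genes was 9630 to 10802 in MPs and 26222 to 30801 in APL progenitors. Of the 8 tested, 6 were higher, Kit was lower and Prtn3 did not pass the test. Erythroid markers went the other way: their sum was 2098 to 2636 FPKM in MPs and 14.6 to 26.5 in APL progenitors, and 9 of the 9 tested were lower. Of the megakaryocyte markers 6 of the 8 tested were lower. Mature neutrophil markers summed to 11957 to 18604 FPKM in MPs and 45932 to 59827 in APL progenitors, with 3 of the 10 tested higher and 2 lower. Most of this sum was S100a8, with a mean of 8951 FPKM in MPs and 42909 in APL progenitors. The 2 lower genes were Ltf (mean 132 to 48.4 FPKM) and Ngp (629 to 222). The part of these marker differences in the values below was not tested, and fewer cells of a type cannot be told apart from less RNA per cell.

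Several members of the family, but not all, carry κB motifs at their own promoters, and these stretches are shown. RefSeq windows on GRCm38.p6, from 250 bases before to 50 after a gene start, were found for 8 of the 10 members (11 windows, 3 of them of Nfkb2) and were not found for Nfkb1 and Relb. On either strand, the 10-base κB consensus occurred in 8 of the 11 member windows and in 8.46% of all 32851 windows. A pair of the Nfkb2 windows overlaps, and the match at chr19:46305695-46305724 lies in both. The 8 windows belong to 6 members, Bcl3, Nfkb2, Nfkbia, Nfkbie, Rel and Tnfaip3, and the windows of Rela and Nfkbib held no match. The GC content of the member windows ran from 47% to 75% and was not matched in the background. The matches nearest to a gene start, and for Nfkb2 also one at a further start, are given 5′ to 3′ on the strand of the gene, with the matched bases in capitals.
Nfkb2, chr19:46304716-46304745, beginning 11 bases before a gene start: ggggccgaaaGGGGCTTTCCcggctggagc
Nfkb2, chr19:46305695-46305724, beginning 10 bases after another gene start: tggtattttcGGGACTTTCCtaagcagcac
Nfkbia, chr12:55492657-55492686, beginning 29 bases before the gene start: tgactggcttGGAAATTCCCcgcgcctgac
Tnfaip3, chr10:19015403-19015432, beginning 12 bases before a gene start: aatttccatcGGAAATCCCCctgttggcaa
Rel, chr11:23771041-23771070, beginning 91 bases before the gene start: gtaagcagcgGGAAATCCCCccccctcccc
Nfkbie, chr17:45555584-45555613, beginning 106 bases before the gene start: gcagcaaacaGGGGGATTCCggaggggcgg
Bcl3, chr7:19822734-19822763, beginning 2 bases after the gene start: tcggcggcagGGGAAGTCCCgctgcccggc
Those of Nfkbia, Tnfaip3 and Rel match when read on the opposite strand, and that of Bcl3 matches on both. A match describes the letters of a window and does not show that a factor binds there.

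In APL progenitors Bcl3 was lower and Relb higher than in MPs, by 7.57-fold and 1.92-fold, and the fitted change of every other member was under 1.5-fold. Of the 10 members, 5 passed limma's test at an adjusted P under 0.05, with Relb, Nfkb2 and Nfkbie higher and Bcl3 and Rela lower in APL progenitors. With a fold change over 1.5 also required, 1 member was called higher (Relb) and 1 lower (Bcl3), whereas 21.7% of the 14595 genes tested were called higher and 24.4% lower (46.1% in all). At the adjusted P alone, 29.7% of all genes were higher and 37.3% lower (67.0% in all). All APL libraries lay above all MP libraries for 3 of the 10 members and below them for 2, against 31.1% and 39.8% of all genes (70.9% in all). The median absolute log2 fold change was 0.30 over the members and 0.59 over all genes tested. The signed median was 0.05 over the members and −0.10 over all genes.

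**Figure D1:**
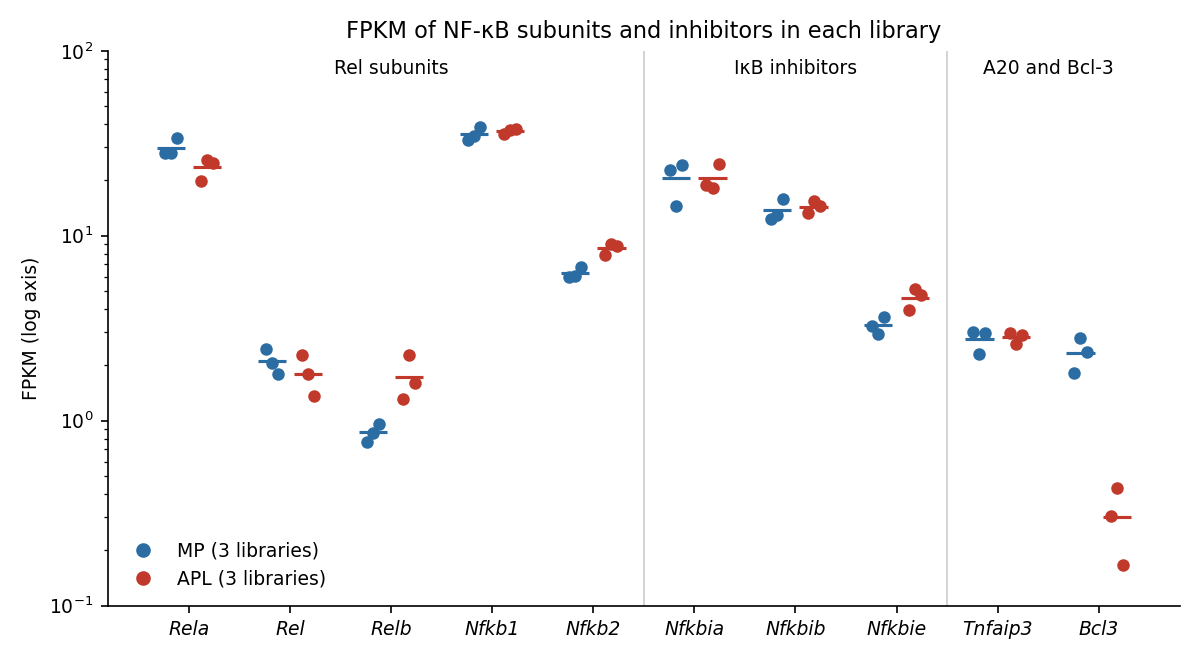
FPKM (log axis) of each member in the 3 MP libraries (blue) and the 3 APL libraries (red), with a line at the mean of each group. The groups are apart for Rela, Relb, Nfkb2, Nfkbie and Bcl3, with Bcl3 falling from a mean of 2.32 to 0.301 FPKM.

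Among the Rel subunits, Nfkb1 and Rela were the most abundant transcripts per length in both groups. Nfkb1, which encodes the p105 precursor of p50 (chr3:135584655-135691547, GRCm38), had 32.9, 34.5 and 38.5 FPKM in MPs and 35.6, 37.4 and 37.8 FPKM in APL progenitors. The groups overlapped almost fully. In scaled fragments, the fragments of a gene after the authors' scaling of each library, Nfkb1 had 4223 ± 397 in MPs and 4345 ± 148 in APL progenitors (SD, n = 3). On the log2 scale the difference was 0.04, with a 95% interval from −0.14 to 0.23 (adjusted p = 0.65 from limma). A change over 1.5-fold in either direction lies outside this interval.

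Rela, the subunit with the main transactivation domain of canonical dimers (chr19:5637490-5648130), was lower in APL progenitors by less than 1.5-fold. The MP libraries had 1932, 1903 and 2381 scaled fragments and the APL libraries 1362, 1796 and 1677. Every APL library lay under every MP library, but APL library 2 came within a small distance of MP library 2. The log2 fold change was −0.36 ± 0.12 (SE) (adjusted p = 0.028 from limma). Its pass at the adjusted P rested on 2 libraries. Without MP library 3 the log2 fold change was −0.26 (adjusted p = 0.0504), and without APL library 1 it was −0.25 (adjusted p = 0.092).

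Relb, the partner of p52 in the non-canonical pathway (chr7:19606222-19629438), was the only member called higher. It had 39.3, 43.8 and 52.3 scaled fragments in MPs and 68.3, 119 and 81.5 in APL progenitors. All APL libraries were above all MP libraries, and APL library 2 was the highest. The log2 fold change was 0.94 ± 0.24 (SE), or 1.92-fold (adjusted p = 0.0077 from limma). Relb had the lowest mean of the 5 subunits in both groups, 0.864 FPKM in MPs and 1.73 in APL progenitors, where it overlapped with Rel. Its values rest on 42 to 58 fragments per MP library and 58 to 137 per APL library before scaling. With log2(FPKM + 1) in place of scaled fragments the log2 fold change was 0.54 (adjusted p = 0.0052), which is under 1.5-fold.

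Nfkb2, the source of p100 and p52 (chr19:46304737-46327156), rose by less than 1.5-fold. It had 491, 496 and 588 scaled fragments in MPs and 652, 744 and 715 in APL progenitors. The groups were separate, and the log2 fold change was 0.42 ± 0.10 (SE) (adjusted p = 0.0054 from limma). Its locus in the table overlaps that of Psd, which had 36.5 to 49.6 scaled fragments in MPs and 20.03 to 30.3 in APL progenitors, lower where Nfkb2 was higher. Rel, the subunit c-Rel (chr11:23741729-23770970), had 176, 149 and 129 scaled fragments in MPs and 161, 129 and 98.7 in APL progenitors. These ranges overlapped, and the log2 fold change was −0.24 with a 95% interval from −0.71 to 0.24 (adjusted p = 0.34), which leaves room for a change of more than 1.5-fold downward.

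Set against each other, the 5 subunits made up the Rel transcripts in different proportions in the 2 groups. Rela formed 39.2% to 41.3% of their summed FPKM in MPs and 29.6% to 33.8% in APL progenitors. Nfkb2 formed 8.27% to 8.53% in MPs and 11.8% in each APL library. Relb stayed a minor part, with 1.098% to 1.20% in MPs and 1.96% to 2.99% in APL progenitors. Nfkb1 formed 46.9% to 48.3% and 49.1% to 53.3%, and the shares of Rel overlapped. The ratio of Rela to Nfkb1 was 0.847 ± 0.0324 in MPs and 0.634 ± 0.0703 in APL progenitors (SD, n = 3), with no overlap. The ratio of Relb to Rela was 0.0289 ± 0.00159 and 0.0730 ± 0.0133. These shares and ratios repeat the differences of the single genes and are given as a description.

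**Figure D2:**
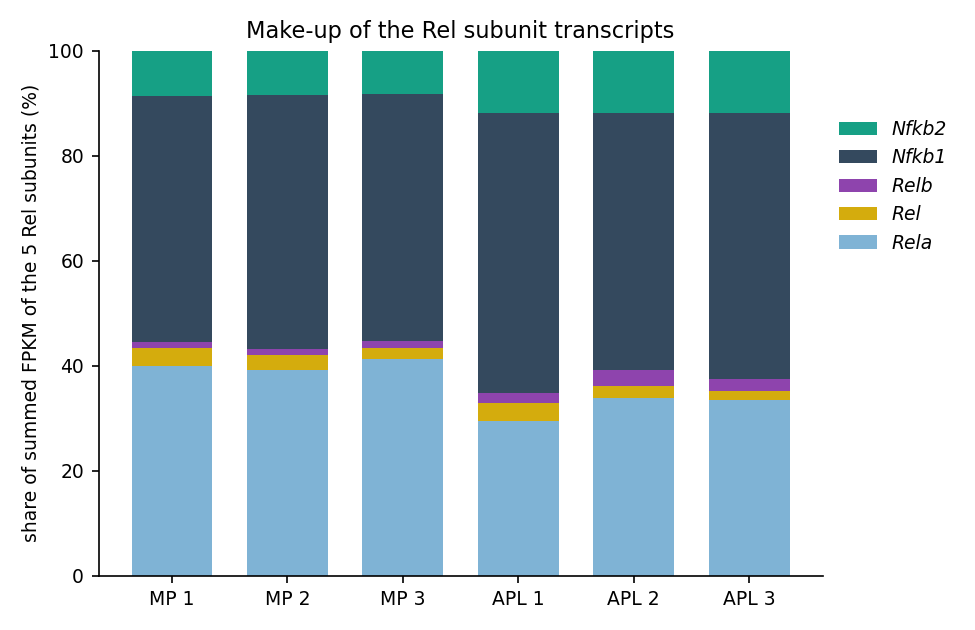
Share (percent, bars stacked to 100) of each of the 5 Rel subunits in their summed FPKM, for each MP and APL library. Rela and Nfkb1 together make up most of every bar, and the Nfkb2 share is 8.27% to 8.53% in MP libraries and 11.8% in each APL library.

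Of the IκB inhibitors, Nfkbie alone passed the test. Nfkbie, which encodes IκBε (chr17:45555716-45563168), had 215, 192 and 248 scaled fragments in MPs and 263, 340 and 313 in APL progenitors. The groups were separate by a narrow margin, between MP library 3 and APL library 1. The log2 fold change was 0.48 ± 0.15 (SE), or 1.39-fold (adjusted p = 0.0165 from limma). The adjusted p passed the threshold no longer without MP library 2 (log2 fold change 0.39, adjusted p = 0.054), APL library 2 (0.40, adjusted p = 0.069) or APL library 3 (0.46, adjusted p = 0.054).

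Nfkbia, the feedback inhibitor IκBα and the most abundant of the 3 inhibitors per length (chr12:55489409-55492647), had 22.8, 14.4 and 24.1 FPKM in MPs and 18.8, 18.2 and 24.4 in APL progenitors. The MP libraries spread more widely than the group means differed, because MP library 2 was low. The log2 fold change was 0.00 (adjusted p = 0.99 from limma), and its 95% interval ran from −0.47 to 0.47. Nfkbib, which encodes IκBβ (chr7:28756174-28766524), had 12.3 to 15.8 FPKM in MPs and 13.2 to 15.4 in APL progenitors, and a log2 fold change of 0.06 with an interval from −0.23 to 0.34 (adjusted p = 0.71). A gene model listed over part of its locus, Gm6537, had at most 1 fragment before scaling in any library. Both intervals exclude a change over 1.5-fold. The summed FPKM of the 3 inhibitors was 0.501 ± 0.0676 of that of the 5 Rel subunits in MPs and 0.545 ± 0.0404 in APL progenitors (SD, n = 3), and the groups overlapped.

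Tnfaip3 and Bcl3 act on the pathway at other points. Tnfaip3 encodes A20, which edits ubiquitin chains on signaling proteins upstream of IKK (chr10:19000910-19015410). It had 409, 314 and 406 scaled fragments in MPs and 406, 359 and 395 in APL progenitors, so that every APL library lay within the range of the MP libraries. The log2 fold change was 0.05 with a 95% interval from −0.24 to 0.34 (adjusted p = 0.76 from limma).

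Bcl3, which encodes a nuclear IκB protein that binds p50 and p52 homodimers on DNA (chr7:19808462-19822755), fell more than any other member. It had 68.4, 104 and 94.7 scaled fragments in MPs and 11.8, 16.5 and 6.17 in APL progenitors. The highest APL library was far under the lowest MP library. Before scaling these were 73, 109 and 105 fragments in MPs and 10, 19 and 5 in APL progenitors, so the size of the decrease is imprecise. The log2 fold change was −2.92 ± 0.35 (SE) with a 95% interval from −3.72 to −2.13, or 7.57-fold lower (adjusted p = 8.2e-05 from limma). Of all genes tested, 11.1% had a larger absolute change. With log2(FPKM + 1) the log2 fold change was −1.35, since the added 1 outweighs values of 0.165 to 0.430 FPKM, and it stayed past the threshold.

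**Figure D3:**
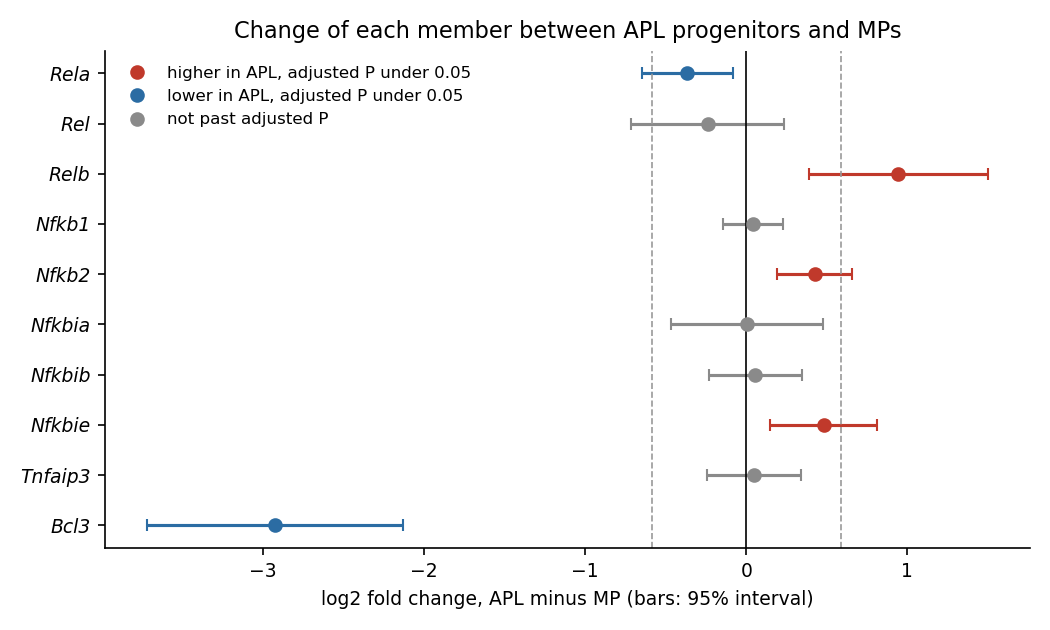
Log2 fold change (APL minus MP) of each member, with bars for the 95% interval from limma over 3 libraries a group and dashed lines at 1.5-fold. The points of Bcl3 at −2.92 and Relb at 0.94 lie past the dashed lines, though the interval of Relb reaches back to 0.39, and the intervals of Nfkb1, Nfkbia, Nfkbib, Tnfaip3 and Rel include 0.

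Ordered by FPKM, the members in MPs ran from Nfkb1 (35.3) through Rela (29.9), Nfkbia (20.4), Nfkbib (13.7), Nfkb2 (6.26), Nfkbie (3.27), Tnfaip3 (2.75), Bcl3 (2.32) and Rel (2.09) to Relb (0.864). Neighbours whose libraries overlapped were Nfkb1 and Rela, Nfkbia and Nfkbib, and each neighbouring pair from Nfkbie to Rel. In APL progenitors the first 7 places were held by the same genes in the same order, from Nfkb1 (36.9) to Tnfaip3 (2.82). Among these, the libraries of Rela (23.5) and Nfkbia (20.5) overlapped. Rel (1.799) and Relb (1.73) followed and overlapped, and Bcl3 (0.301) came last. Among genes with any FPKM in a group, Nfkb1 stood at the 85.8th percentile in MPs and the 85.6th in APL progenitors, and Bcl3 at the 39.3rd and the 25.9th.

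The genes whose 6-library pattern was nearest to that of Bcl3, by Euclidean distance of centred log2(FPKM + 1) among 10872 genes, were Lat (distance 0.195), Fam46c (0.218) and Slc39a14 (0.240). Lat had 6.38, 8.04 and 8.52 FPKM in MPs and 2.22, 2.69 and 2.11 in APL progenitors, a smaller fold than that of Bcl3. Fam46c had 2.01, 3.05 and 2.45 FPKM in MPs and 0.270, 0.279 and 0.162 in APL progenitors. The nearest to Relb were Palm (0.162), Zfp64 (0.165) and Bloc1s4 (0.168), which are more abundant than Relb and, like it, highest in APL library 2. The added 1 weighs more on low values, so a near pattern need not have a fold of the same size. These are descriptions over 6 libraries in 2 groups.

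The machinery around the members was followed in 6 lists of other pathway genes. The kinases that act on IκB proteins differed little. The list holds Chuk and Ikbkb, the catalytic IKK subunits, Ikbkg, the regulatory subunit NEMO, and the related kinases Ikbke and Tbk1. By limma 0 of 5 were called at a fold over 1.5, against 46.1% of all genes. At any fold 1 passed at an adjusted P under 0.05, against 67.0% of all genes, and only that 1 passed at an unadjusted P. That gene was Ikbkb, with 2786, 2704 and 2835 scaled fragments in MPs and 3502, 3598 and 3424 in APL progenitors (log2 fold change 0.34, adjusted p = 0.0012). The log2 fold changes of Chuk (−0.12), Ikbkg (−0.09), Ikbke (0.11) and Tbk1 (0.08) did not pass. In scaled fragments all APL libraries lay above all MP libraries for Ikbkb and Tbk1 and below them for Chuk. Of all genes, 70.9% had groups that did not overlap. With each library scaled to the same total, Chuk and Ikbkg passed as lower (−0.25 and −0.22), and Ikbke and Tbk1 changed sign. The atypical IκB genes Nfkbid and Nfkbiz, relatives of Bcl3, both rose by less than 1.5-fold. Nfkbid went from 296 ± 37.5 to 418 ± 38.9 scaled fragments (0.50, adjusted p = 0.0075). Nfkbiz went from 145 ± 20.8 to 196 ± 29.0 (0.43, adjusted p = 0.046), and its adjusted p passed the threshold no longer with several alternatives, being 0.17 without APL library 3, 0.14 without MP library 2, 0.071 without APL library 1 and 0.060 without MP library 3.

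Among receptors of the TNF and IL-1 families, Tnfrsf1b and Il18rap rose and Il1rl1, Tnfrsf13c and Il18r1 fell. Of the 10 tested, 6 were called higher and 3 lower, against 21.7% and 24.4% of all genes, and the list's median log2 fold change was 0.94. The 11th, Cd40, had at most 3 fragments in every library. Tnfrsf1b, a TNF receptor, had 1677, 1516 and 1441 scaled fragments in MPs and 3927, 4607 and 4310 in APL progenitors (log2 fold change 1.47, adjusted p = 9.0e-07). Il18rap, a subunit of the IL-18 receptor, rose from 237 ± 60.2 to 632 ± 38.0 (1.44). Il18r1, the other subunit of that receptor, named after its values were seen, fell from 37.3 ± 7.81 to 14.1 ± 1.62 (−1.33, adjusted p = 0.0015). Tnfrsf13c, also named after its values were seen, fell from 37.8 ± 3.71 to 1.84 ± 2.24 (−4.09, adjusted p = 0.00017 from limma). Il1rl1, the IL-33 receptor, fell from 1006 ± 119 to 13.3 ± 3.497 (−6.15, adjusted p = 3.5e-08). Of the mast cell and basophil markers, which mark cells known to carry this receptor, 4 of the 5 tested were lower. Of all genes, 24.4% were called lower. The largest fall among these markers was that of Cpa3, from 1351 ± 260 to 31.1 ± 14.8 scaled fragments. Ms4a2 fell from 90.6 ± 11.4 to 24.4 ± 1.71. The 1 marker that was higher was Mcpt8, with 313 ± 53.7 scaled fragments in MPs and 680 ± 67.0 in APL progenitors. The summed FPKM of the markers, falling genes and Mcpt8 together, was 47.5 to 65.0 in MPs and 37.5 to 43.0 in APL progenitors. Mcpt4 and Tpsb2 were at 0 in every APL library, but had means of only 3.65 and 3.41 scaled fragments in MPs. The part of these markers in the decrease of Il1rl1 was not tested.

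Between the receptors and IKK, 5 of 23 adaptors and kinases were called higher and 4 lower, against 21.7% and 24.4% of all genes. Their median log2 fold change was 0.08. Card9, an adaptor of C-type lectin signaling in myeloid cells, had 1421 ± 194 scaled fragments in MPs and 3545 ± 291 in APL progenitors (log2 fold change 1.32). Tradd, an adaptor of the TNF receptor, rose from 467 ± 93.3 to 908 ± 99.97 (0.97). Irak2, a kinase of IL-1 and Toll-like receptor signaling, fell from 354 ± 37.3 to 123 ± 6.08 (−1.51), and Map3k7, the kinase TAK1 that activates IKK, from 3220 ± 172 to 2110 ± 43.8 (−0.61). Of the 11 tested genes of ubiquitin editing, 3 were called higher and 1 lower, with the same shares of all genes as background. Cyld, a deubiquitinase that restrains the pathway, had 1461 ± 122 and 2827 ± 96.0 scaled fragments (0.95), and Tax1bp1, an adaptor of A20, 6032 ± 176 and 9970 ± 608 (0.72), both higher in APL progenitors while Tnfaip3 itself differed by 0.05. The 1 gene called lower, Tnip3, chosen for naming after its values were seen, had 6, 13 and 25 fragments before scaling in MPs and 0 in every APL library.

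Of 28 widely cited NF-κB target genes tested, 14 were called higher and 6 lower, against 21.7% and 24.4% of all genes, with a median log2 fold change of 0.72 that was the same with 4 genes near absence set at their bounds. The higher genes include the near-identical copies Bcl2a1a, Bcl2a1b and Bcl2a1d, whose fragments could be divided between them and whose single values are uncertain. Cxcl10, a chemokine that also responds to interferons, rose from 16.9, 8.57 and 18.9 scaled fragments in MPs to 609, 648 and 675 in APL progenitors (log2 fold change 5.42, adjusted p = 3.2e-07). Ptgs2, the inducible cyclooxygenase, rose from 11.5 ± 5.56 to 183 ± 71.9 (3.88). Ccnd1, which encodes cyclin D1, fell from 132 ± 6.87 to 16.7 ± 5.94 (−2.96), and Icam1, an adhesion molecule, from 265 ± 41.9 to 138 ± 9.86 (−0.93). Many of these genes answer to other factors as well. Monocyte and macrophage markers, cells in which several of them are high, had a summed FPKM of 46.1 to 56.2 in MPs and 68.5 to 70.0 in APL progenitors, with 4 of the 10 tested higher and 4 lower, and none at 0 in all libraries of a group. Their part in these differences, and that of the mature neutrophil markers given above, was not tested.

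**Figure D4:**
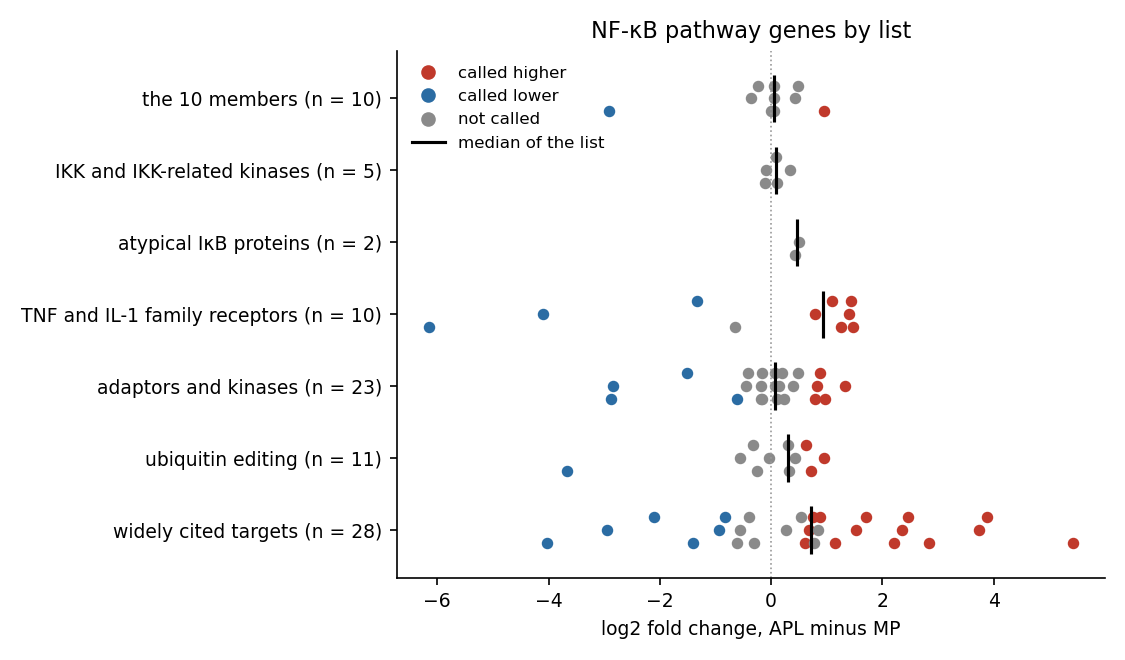
Log2 fold change (APL minus MP) of the 10 members and of the tested genes of 6 lists of other NF-κB pathway genes, with a bar at the median of each list. Called genes (adjusted P under 0.05 and over 1.5-fold) are red where higher and blue where lower. The kinases lie between −0.12 and 0.34 and the members, apart from Bcl3 and Relb, between −0.36 and 0.48, and the receptors and target genes are spread from −6.15 to 5.42.

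**Figure D5:**
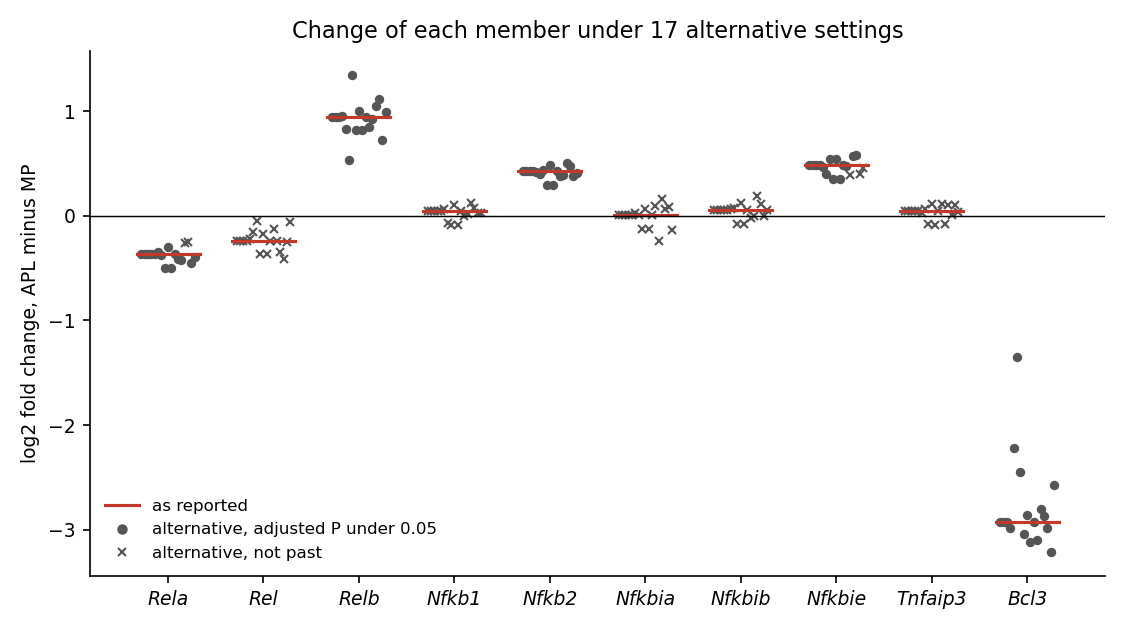
Log2 fold change (APL minus MP) of each member under 17 alternative settings (dots where the adjusted P was under 0.05, crosses where it was not) and as reported (red line). Bcl3, Relb and Nfkb2 pass under all 17, Rela under 15 and Nfkbie under 14, and the other 5 members under none.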

How the data were processed

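RNA was extracted from sorted cells and libraries were made by the TruSeq RNA protocol. The deposited FPKM values are normalized by the authors to transcript length and library. The deposited fragment values are a signal, fragments per gene multiplied by the authors with 1 factor per library. Divided by the value of 1 fragment, 87.3% to 88.4% of values up to 100 fragments were whole (tolerance 0.01), and all values of the members were. The processing notes of the submitters name CASAVA 1.8, TopHat2 2.0.6 and mm10, and the study's methods name STAR and mm9. Loci follow GRCm38 with starts counted from 0, to which 1 was added here. Strand use in counting is not given in the sources used here.

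limma 3.58.1 in R 4.3.3 (lmFit, eBayes with a trend) was applied to log2(scaled fragments + 1) of genes with at least 1 in at least 3 of 6 libraries. P-values were adjusted over all 14595 genes by Benjamini-Hochberg, and genes were called at an adjusted P under 0.05 and a fold over 1.5. Folds on this scale understate changes of low genes. On simulated data over 14857 genes, recovery and false calls were counted at an adjusted P under 0.05 alone, without the fold limit. By that rule 30 of 50 genes changed by 0.6 on the log2 scale were recovered in the right direction. Of those changed by 1, 46 of 50 were recovered, with 5 false calls over all sizes. The simulation gave every gene the same spread beyond counting and changed few genes, all with a mean of at least 50 scaled fragments. It held no deviating library such as MP library 3, so these rates do not describe the power or errors of this comparison. Members, lists and rules were chosen with earlier results of these data known. Beside the members, all genes of the kinase and atypical IκB lists and, from each other list, the up to 2 largest called increases and decreases among genes with a mean of at least 50 scaled fragments were named, and for Bcl3 and Relb the 3 genes of nearest pattern with a mean FPKM of at least 1. Fragments at or under 3 were treated as near absence. Figures were drawn with matplotlib 3.10.9.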

Additional observations from a re-analysis of the deposited data

How the results depend on the processing

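Fold changes of 30 named genes were recomputed under 17 alternatives and counts under 19. Of the fold changes, 473 values kept direction and side of the threshold, 12 no longer passed, 4 newly passed and 20 changed sign, all of the latter in genes past no threshold. With FPKM, 1980 genes were called lower (3558 as reported), 7 other pathway genes were called lower (14), and 0 members were called higher (1), although 3 were higher at an adjusted and an unadjusted P. FPKM left fewer genes to test, and its pseudocount weighs more on low values. The balance of calls turned with the scaling: lower genes made up 52.9% of calls as reported, 60.8% with the same total, 60.9% with voom, 47.9% with quantile normalization and 49.0% with median ratio scaling. With no fold limit, 5443 genes were lower, 3 members were higher and 2 were lower. Each library left out in turn gave 1 to 2 members lower at the adjusted P. Scaling to the same total and voom moved the median of all genes by −0.13, and with them the log2 fold changes of Nfkb1 (−0.0862 with both), Nfkbia (−0.13 with both), Nfkbib (−0.0742 and −0.0774), Tnfaip3 (−0.0830 and −0.0848), Ikbke (−0.0225 and −0.0216) and Tbk1 (−0.0487 and −0.0485) turned below 0. Quantile normalization gave −0.0740 for Nfkb1, the cause of which was not tested. Over the 6 fits with a library removed, Nfkb1 ranged from −0.0059 to 0.12, Nfkbia from −0.24 to 0.16, Nfkbib from −0.0225 to 0.19 and Tnfaip3 from −0.0773 to 0.11.

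The library numbers were not taken to pair the samples, since the deviations of same-numbered libraries correlated at 0.135, −0.00159 and 0.127, and not every library correlated best with its own number. With the number as a replicate block, 3164 genes were called higher and 3589 lower, 6673 of the 6725 calls were shared, and the same members passed. At this depth the level of Bcl3 in APL progenitors rests on 5 to 19 fragments a library.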
